A study of Danio rerio with 8 samples.

Results

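Purine breakdown was followed through 10 zebrafish genes that encode guanine deaminase (gda), the purine nucleoside phosphorylases (pnp4a, pnp4b, pnp5a, pnp5b and pnp6), the adenosine deaminases (ada, ada2a and ada2b) and xanthine dehydrogenase (xdh). They were taken by gene name from a deposited table of 24221 genes, and all 10 names were found. They were chosen by name as a pathway with the measured difference between mutant and sibling libraries already known, above all that of gda. For these genes that difference is therefore given as a description, without p-values.

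RNA came from macrophage-lineage cells, picked out by flow cytometry for their mpeg:GFP transgene, in which the macrophage promoter mpeg drives GFP. The cells were taken from dissociated TL strain larvae, aged 6 days post fertilization. The 4 libraries of rraga mutants and the 4 of wild-type siblings are numbered 1, 2, 4 and 5 in each genotype. All larvae were raised with methylene blue and with PTU, which blocks melanin synthesis, and were scored as mutant or wild type by microscopy before the sort. The labels give neither the rraga allele nor the number of larvae or clutches in a library. The protein made from rraga, RagA, is a GTPase of the lysosome surface that brings the kinase mTORC1 there when amino acids are plentiful.

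Cells release purine bases from nucleotides in a fixed order. Adenosine deaminases turn adenosine into inosine, and purine nucleoside phosphorylases split inosine and guanosine into a sugar phosphate and the free bases hypoxanthine and guanine. Guanine deaminase turns guanine into xanthine, which removes it from salvage, and xanthine dehydrogenase oxidizes hypoxanthine and xanthine to urate. Macrophages meet large amounts of purines because they digest the nucleic acids of engulfed cells in their lysosomes. Zebrafish pigment cells also use this pathway: iridophores make reflecting crystals of guanine and express pnp4a, and xanthophores, which make pteridine pigments, express xdh.

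The libraries held 24940664 to 30911560 counts in mutants and 25530526 to 29147340 in siblings. rraga stood at 199 ± 14.3 CPM (counts per 1000000 reads, scaled with TMM factors) in mutants and 129 ± 9.97 CPM in siblings (SD, n = 4 each). With the allele not given, this level does not check the genotype. Of 12 markers of macrophages and microglia all were detected, with 1 higher and 4 lower in mutants (1 and 5 when blocked by replicate number), where 14.5% of all tested genes were higher and 13.9% lower. Their summed level was 8478 to 9662 CPM in mutant libraries and 10096 to 14866 CPM in sibling libraries. Most of this was apoeb and lcp1. apoeb was at 3508 ± 720 CPM in mutants and 5193 ± 2244 CPM in siblings, and lcp1 at 2468 ± 227 and 3846 ± 323 CPM. mpeg1.1, whose promoter drives the GFP, was at 65.5 ± 23.7 CPM in mutants and 231 ± 13.2 CPM in siblings. The leukocyte gene coro1a was close to 0, at 0.370 ± 0.143 CPM in mutants and 0.681 ± 0.519 CPM in siblings. The marker called higher was spi1b, at 1428 ± 47.5 CPM in mutants and 685 ± 75.8 CPM in siblings (Benjamini-Hochberg adjusted p = 0.000121, edgeR). mfap4 (723 ± 77.6 and 622 ± 84.0 CPM) and marco (568 ± 100 and 442 ± 54.6 CPM) were higher in mutants on average but did not pass. The other markers were lower in mutants on average. The 4 called lower were mpeg1.1, lcp1, cd74a and p2ry12 (adjusted p = 0.000543, 0.00289, 1.38e-06 and 3.64e-05 in the same edgeR fit). cd74a was at 28.4 ± 3.25 CPM in mutants and 279 ± 38.2 CPM in siblings, and p2ry12 at 16.8 ± 3.77 and 88.0 ± 13.1 CPM. Both were named after their values were seen. In sorted populations such as these, fewer cells of a type and less RNA per cell cannot be told apart.

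Guanine deaminase transcripts were 174-fold as abundant in mutants. The summed transcripts of the nucleoside phosphorylases that feed the enzyme differed by less than their spread, and those of the dehydrogenase that follows it were few. gda (ENSDARG00000002986, GRCz11 chromosome 5, 25708369 to 25723079, minus strand) had 2390, 1794, 2257 and 1834 CPM in mutant libraries 1, 2, 4 and 5. In sibling libraries 1, 2, 4 and 5 it had 8.87, 12.3, 11.6 and 14.8 CPM. The genotypes were far apart, and within each genotype the libraries stayed close together, with a coefficient of variation of 14.5% in mutants and 20.5% in siblings. The fitted log2 fold change was 7.44 (SE 0.219). Ratios between libraries of the same number were 270, 146, 195 and 124 for numbers 1, 2, 4 and 5. Over every alternative setting, each library left out included, the log2 fold change lay between 7.26 and 7.65.

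In raw counts, 40895 to 65448 reads were assigned to gda in a mutant library, against 272 to 451 in a sibling library. This was 0.195% ± 0.0278 of all counts in mutants and 0.00127% ± 0.000298 in siblings (SD, n = 4 each). Ranked by count among all genes, gda held places 45 to 70 in mutant libraries and 6384 to 7834 in sibling libraries. Sibling cells thus had a measurable but modest amount of this transcript, and in mutants it was among the most abundant. Its log2 fold change was the 6th highest of the 16086 genes tested.

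**Figure D1:**
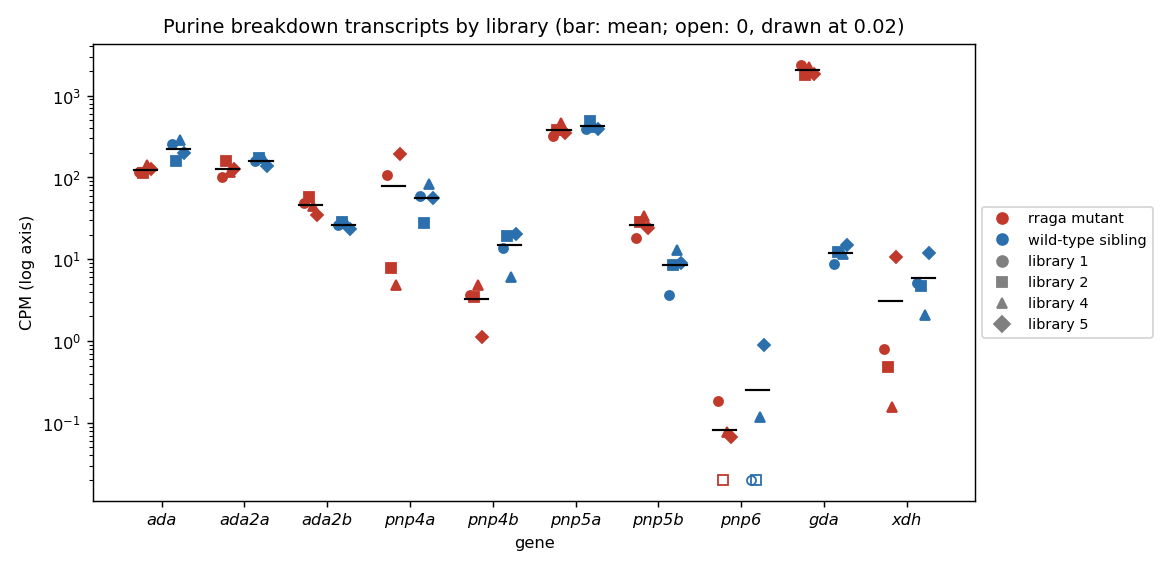
CPM on a log axis of the 10 purine breakdown genes in each of 4 rraga mutant libraries (red) and 4 wild-type sibling libraries (blue), with marker shape for library number, black bars for means and open markers for values of 0 drawn at 0.02. gda lies at 1794 to 2390 CPM in mutants and 8.87 to 14.8 CPM in siblings, while pnp4a and xdh spread widely among the mutant libraries.

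Of the 9 members with enough counts to test, 3 rose (gda, pnp5b and ada2b) and 2 fell (pnp4b and ada) at an adjusted threshold of 0.05 in the fit across all genes (quasi-likelihood test of edgeR, Benjamini-Hochberg). Among all 16086 genes tested, 28.4% passed the same threshold, 14.5% as higher and 13.9% as lower in mutants. The same 5 members were those in which the 4 mutant libraries lay wholly above or below the 4 sibling libraries, which was so for 31.4% of all tested genes. These counts describe genes chosen with the contrast known, and nothing is read from them.

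The adenosine deaminases differed in direction. ada (ENSDARG00000003113, chromosome 23, 25946448 to 25976656, minus strand), which encodes the cytosolic enzyme, had 118, 113, 141 and 126 CPM in mutant libraries 1, 2, 4 and 5, against 258, 161, 286 and 197 CPM in sibling libraries of those numbers. Every mutant library was below every sibling library. The fall was 0.86 on the log2 scale (SE 0.177), to 124 ± 12.2 CPM in mutants, against 225 ± 56.7 CPM in siblings (SD, n = 4 each).

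ada2a and ada2b are related to human ADA2, a secreted adenosine deaminase of myeloid cells. ada2a (ENSDARG00000051746, chromosome 25, 16689633 to 16700924, plus strand) had 100, 161, 118 and 126 CPM in mutants and 159, 173, 175 and 137 CPM in siblings, and the ranges overlapped. Its log2 fold change of -0.35 (SE 0.151) did not pass the threshold. It passed without mutant library 2 (log2 fold change -0.49), scaled by library size alone (-0.52) and with a stricter filter on low counts (-0.42).

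ada2b (ENSDARG00000015623, chromosome 4, 5225552 to 5240128, minus strand) had 49.0, 58.2, 44.7 and 35.0 CPM in mutants and 26.1, 28.8, 27.4 and 23.4 CPM in siblings. Each mutant library was above each sibling library, with a log2 fold change of 0.82 (SE 0.160). The gene begins where its neighbour atp6v1e1b ends, on the same strand and with 3 bases in common. atp6v1e1b, which encodes a subunit of the proton pump of the lysosome, was chosen after its values were seen. It rose 1.95-fold, to 1369 ± 73.3 CPM in mutants, against 702 ± 28.8 CPM in siblings (SD, n = 4 each, Benjamini-Hochberg adjusted p = 8.97e-05 in the same edgeR fit). In each library ada2b had a small fraction of the counts of atp6v1e1b, namely 3.65%, 4.02%, 3.17% and 2.73% in mutants and 3.61%, 4.18%, 3.77% and 3.51% in siblings. The part of reads from the neighbour in the values of ada2b was not tested.

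**Figure D2:**
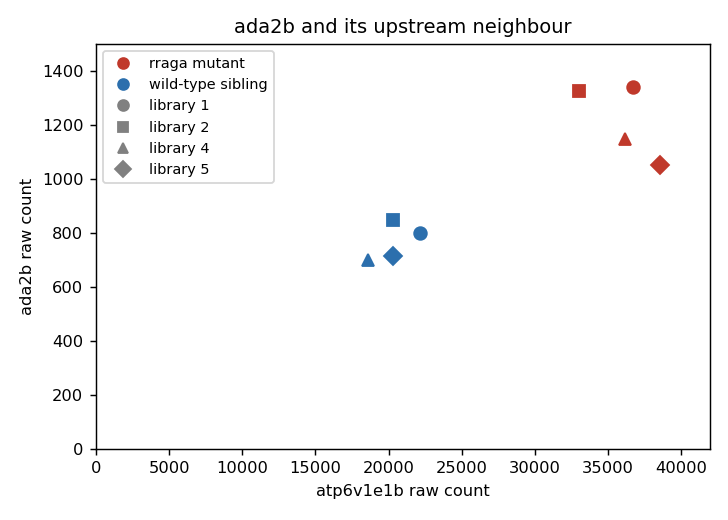
Raw counts of ada2b against raw counts of atp6v1e1b, the gene directly upstream of it on the same strand, in 4 rraga mutant libraries (red) and 4 wild-type sibling libraries (blue), with marker shape for library number. Both genes are higher in all mutant libraries, and ada2b has 2.73% to 4.02% of the counts of atp6v1e1b in mutants and 3.51% to 4.18% in siblings.

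Among the nucleoside phosphorylases, the main transcript did not pass the threshold while 2 minor ones moved in opposite directions. pnp5a (ENSDARG00000078619, chromosome 7, 6652967 to 6668424, plus strand) had 319, 385, 459 and 348 CPM in mutants, against 395, 489, 415 and 388 CPM in siblings. The ranges overlapped, and the log2 fold change of -0.16 (SE 0.134) did not pass. pnp5a made up 74.4% ± 8.75 of the phosphorylase transcripts per kilobase in mutants and 82.4% ± 3.33 in siblings (SD, n = 4 each). The sum over the 5 phosphorylase genes was 165 ± 18.4 CPM per kilobase in mutants and 166 ± 13.5 CPM per kilobase in siblings.

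pnp5b (ENSDARG00000099802, chromosome 2, 58186846 to 58201173, minus strand) had 18.2, 28.2, 33.8 and 24.3 CPM in mutants, against 3.62, 8.40, 13.0 and 9.13 CPM in siblings. It was higher in every mutant library, with a log2 fold change of 1.62 (SE 0.349). pnp4b (ENSDARG00000029230, chromosome 16, 36807924 to 36834633, minus strand) had 3.61, 3.42, 4.79 and 1.13 CPM in mutants, against 13.9, 19.1, 6.03 and 20.2 CPM in siblings. It fell by 2.19 on the log2 scale (SE 0.479), with mutant library 4 and sibling library 4 nearest to each other. A gene on the opposite strand, si:ch73-215d9.1, spans pnp4b and held 9.13% as many counts. pnp6 (ENSDARG00000040942, chromosome 18) had 0 to 5 counts in a mutant library and 0 to 27 in a sibling library, too few to test.

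pnp4a, the phosphorylase gene of guanine-storing iridophores, differed more among mutant libraries than between the genotypes. pnp4a (ENSDARG00000057575, chromosome 11, 24251141 to 24299538, plus strand) had 107, 7.81, 4.83 and 195 CPM in mutant libraries 1, 2, 4 and 5, against 58.6, 28.0, 83.0 and 55.9 CPM in sibling libraries. Mutant libraries 1 and 5 were high and 2 and 4 low, with the siblings between them. Its log2 fold change of 0.48 (SE 0.955) did not pass, and its direction turned with replicate number as a block (-0.64, SE 1.06) and without mutant library 5 (-0.47).

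The iridophore transcription factor gene alx4a, at 18.4, 1.36, 0.195 and 17.2 CPM in mutant libraries 1, 2, 4 and 5, was high and low in the same libraries. So was hprt1l, a salvage enzyme gene, at 5.88, 0.702, 0.701 and 11.1 CPM. In siblings alx4a had 9.09, 5.95, 8.61 and 4.69 CPM and hprt1l 3.46, 1.84, 3.72 and 4.07 CPM. alx4a and hprt1l were chosen after their values were seen, as were alx4b, fhl2a, tfap2a, tpd52 and alkal2a below. The 9 iridophore markers found in the table summed to 166 to 397 CPM in mutant libraries and 113 to 195 CPM in sibling libraries. Most of this was tfec, at 204 ± 46.0 CPM in mutants and 95.7 ± 15.6 CPM in siblings. tfec encodes a MiT/TFE factor that macrophages also express, and it rose in mutants (log2 fold change 1.09, SE 0.177, adjusted p = 0.00181 in the edgeR fit across all genes). The receptor kinase gene ltk, which defines iridophores, was low, but its 1.31, 0.439, 0 and 2.19 CPM in mutant libraries 1, 2, 4 and 5 were high and low in the same libraries as pnp4a. In siblings it had 0.424 to 0.612 CPM. The iridophore markers alx4b, with 3.65, 0.570, 0.0389 and 5.35 CPM, and fhl2a, with 14, 0.614, 0.623 and 18.1 CPM, were likewise highest in mutant libraries 1 and 5. In siblings alx4b had 0.919 to 3.46 CPM and fhl2a 3.13 to 16.9 CPM. slc2a15a and tfap2a were also highest in mutant libraries 1 and 5. The other iridophore markers did not follow this order. In mutant libraries 1, 2, 4 and 5, tfec had 191, 203, 156 and 266 CPM and tpd52 2.74, 1.36, 3.15 and 2.39 CPM. alkal2a was near 0, at 0.183, 0, 0 and 0 CPM. The order was not particular to iridophore markers. Markers of melanophores, the melanin cells, summed to 2262, 1089, 600 and 5511 CPM in mutant libraries 1, 2, 4 and 5. Of them, all but oca2 and pmelb were highest in mutant libraries 1 and 5. So were the xanthophore markers other than pts and scarb1. The part of iridophore or other pigment cell RNA in the pnp4a values was not tested.

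xdh (ENSDARG00000055240, chromosome 17, 33340675 to 33374538, plus strand), whose product forms urate, was low in all libraries and varied with library number. It had 0.803, 0.483, 0.156 and 10.8 CPM in mutant libraries 1, 2, 4 and 5, against 5.09, 4.66, 2.11 and 12 CPM in sibling libraries. The library numbered 5 was the highest in both genotypes, and mutant library 5 was above sibling libraries 1, 2 and 4. Over all libraries the log2 fold change was -0.95 (SE 1.09) and did not pass. It was -2.29 (SE 0.626) with replicate number as a block and -3.58 without mutant library 5, the highest mutant library. Without both libraries numbered 5, a setting chosen after the data were seen, it was -2.99 (SE 0.638). xdh passed in these 3 fits, but it was chosen with the contrast known, and nothing is read from these passes. Mutant over sibling, the ratios were 0.158, 0.104 and 0.0737 for numbers 1, 2 and 4 and 0.904 for number 5.

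The libraries numbered 5 also held most of the transcripts of xanthophores, the yellow pigment cells. gch2, which encodes the first enzyme of pteridine synthesis, had 158, 99.0, 123 and 1757 CPM in mutant libraries 1, 2, 4 and 5. In sibling libraries 1, 2, 4 and 5 it had 163, 286, 259 and 1490 CPM. The 9 xanthophore markers summed to 267 to 360 CPM in mutant libraries 1, 2 and 4 and 2266 CPM in mutant library 5, against 294 to 412 CPM in sibling libraries 1, 2 and 4 and 1846 CPM in sibling library 5. All 9 were detected, with 0 higher and 0 lower in mutants by edgeR, at an adjusted or an unadjusted p under 0.05, and by DESeq2. Blocked by replicate number, 2 were higher and 1 lower, and without the libraries numbered 5, 1 was higher and 2 were lower. The 10 melanophore markers summed to 600 to 5511 CPM in mutants and 668 to 3119 CPM in siblings, highest in the libraries numbered 5. Of these 1 was higher in mutants, where 14.5% of all tested genes were higher. Blocked by replicate number, 4 were higher and 1 lower. The called gene, tyrp1a, of melanin synthesis, had 171, 76.9, 66.3 and 221 CPM in mutants, against 25.8, 23.2, 13.3 and 61.8 CPM in siblings (adjusted p = 0.0152). The part of pigment cell RNA in the xdh values was not tested. Liver and gut, which express xdh in mammals, were also traced with a list of 13 markers, of which prss1 and ela2 are pancreatic. The 13 summed to 137 to 580 CPM in mutants and 336 to 1217 CPM in siblings, and prss1 gave 253 CPM in mutant library 4. prss1 and ela2 did not pass, with log2 fold changes of 1.27 (SE 1.16) and 1.04 (SE 1.12). Of the 13 markers 3 were lower in mutants, where 13.9% of all tested genes were lower. At an unadjusted p under 0.05 in edgeR 9 were lower, and the share of all genes at that level was not computed. When blocked by replicate number, and also without the libraries numbered 5, 2 of the 13 markers were lower. Their median log2 fold change was -1.52.

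**Figure D3:**
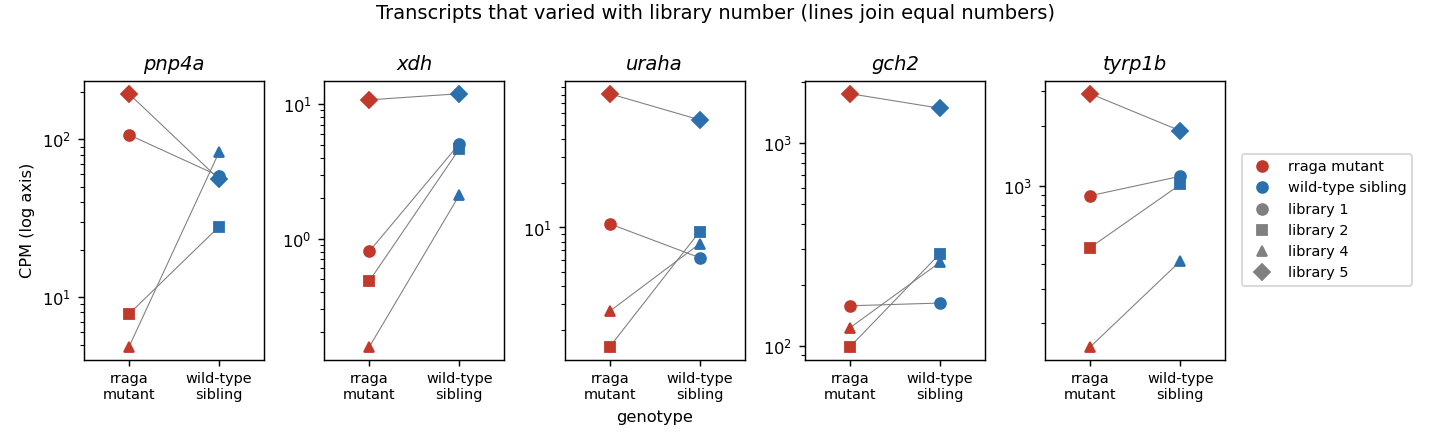
CPM on log axes of pnp4a, xdh, uraha (urate breakdown), gch2 (xanthophores) and tyrp1b (melanophores) in 4 rraga mutant libraries (red) and 4 wild-type sibling libraries (blue), with grey lines joining libraries of the same number. xdh, uraha, gch2 and tyrp1b are highest in the libraries numbered 5 of both genotypes, and pnp4a is highest in mutant library 5.

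Per kilobase of gene length, the order of the members differed between the genotypes for gda and among the minor phosphorylases. In mutants gda stood first at 1069 ± 155 CPM per kilobase, above pnp5a at 123 ± 19.7, and the ranges of the 2 did not overlap. ada at 53.6 ± 5.25 and ada2a at 50.8 ± 10.2 followed and overlapped each other. pnp5b (23.0 ± 5.77), ada2b (19.9 ± 4.10) and pnp4a (17.4 ± 20.1) overlapped in turn, and pnp4b (1.96 ± 0.925), xdh (0.519 ± 0.877) and pnp6 (0.0412 ± 0.0381) were lowest.

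In siblings the order began with pnp5a at 137 ± 15.1, ada at 97.1 ± 24.4 and ada2a at 64.8 ± 6.98 CPM per kilobase, of which ada and ada2a overlapped. pnp4a (12.5 ± 4.97), ada2b (11.3 ± 0.986), pnp4b (8.95 ± 3.91), pnp5b (7.49 ± 3.37) and gda (6.15 ± 1.26) formed a chain in which each overlapped the next. pnp5b and pnp4b, whose ranges overlapped in siblings, lay apart in mutants. xdh (1.01 ± 0.715) and pnp6 (0.126 ± 0.215) were again lowest. gda transcripts were 78.4% ± 3.18 of the summed level per kilobase of the 10 members in mutants and 1.79% ± 0.461 in siblings. Set against the sum of the phosphorylases, gda was 5.32 to 8.49 times as abundant per kilobase in mutant libraries and 0.0300 to 0.0481 times in sibling libraries.

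**Figure D4:**
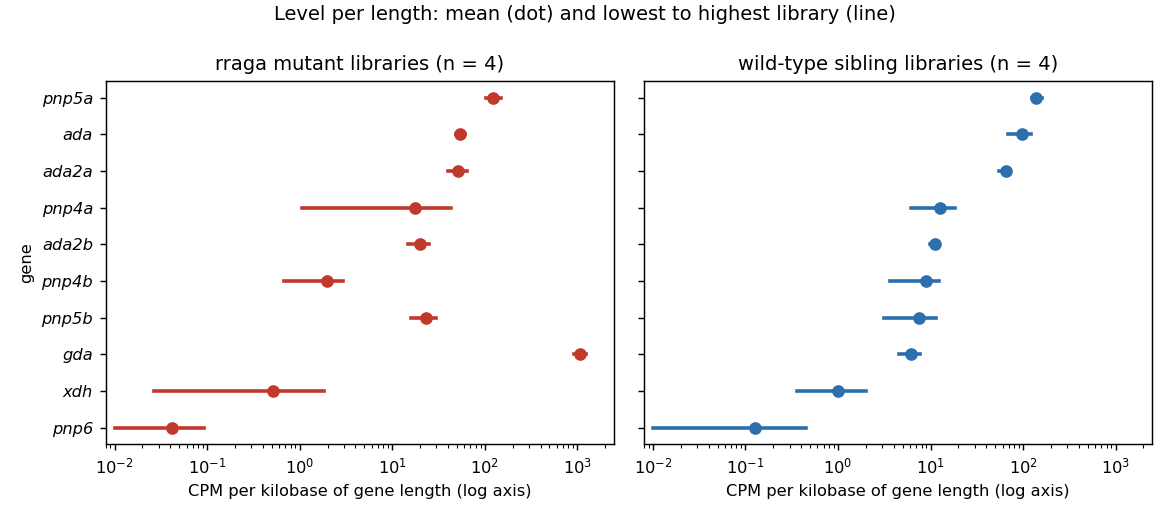
Level per gene length, as CPM per kilobase on a log axis, of the 10 members in rraga mutant libraries (left) and wild-type sibling libraries (right), n = 4 each, with dots for means and lines from the lowest to the highest library (lines that reach 0 are cut at 0.01). gda is at 1069 CPM per kilobase in mutants and 6.15 CPM per kilobase in siblings, while pnp5b stands above pnp4b in mutants and overlaps it in siblings.

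The 5 genes whose pattern over the 8 libraries was nearest to that of gda were helt, trim35-10, tex2l, zgc:114041 and twf2a. Likeness was the root mean square difference of log2 CPM after centring each gene on its own mean, over 8084 genes with at least 10 CPM in either genotype, and it lay between 0.667 and 0.784. Because centring was over all 8 libraries, the measure mostly picks genes with a genotype difference near that of gda. It says little about order within a genotype. The log2 fold changes of the 5 ran from 6.15 (twf2a) to 7.59 (tex2l). All 5 were nearly silent in siblings. helt, a transcription factor gene of the hairy family, had 35.4 to 62.9 CPM in mutants and 0.164 to 0.816 CPM in siblings. twf2a, for the actin-binding protein twinfilin, had 41.7 to 92.1 CPM in mutants and 0.652 to 1.36 CPM in siblings. gda stood above all 5 in both genotypes, at 2069 CPM in mutants and 11.9 CPM in siblings on average.

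To describe the rest of purine metabolism, 6 lists of other purine genes were followed. The lists were chosen with earlier results of these data known, and most genes named below were picked for a small p. Their share and p-values are therefore no independent test. Of 111 names 90 were in the table and 77 could be tested. In mutants 17 rose and 10 fell, or 35.1% of those tested, against 28.4% of all genes, and their median log2 fold change was 0.13, against -0.09 for all genes. Over all genes 2334 were higher and 2233 lower. Scaled by library size alone, these were 1659 and 3123, and the median of all genes was -0.26. The other purine genes were then 13 higher and 15 lower, so which direction held more of them depended on the scaling. With both libraries numbered 5 left out, a setting chosen after the data were seen, the counts over all genes were 1871 higher and 1406 lower, and those of the other purine genes 15 higher and 7 lower. All p-values below are adjusted with the Benjamini-Hochberg method over all tested genes, in the edgeR fit, and all ± values are SD over 4 libraries.

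Transport of bases and nucleosides held the most abundant change, with 4 of 10 tested genes higher and 2 lower (4 and 1 when blocked by replicate number, and likewise without the libraries numbered 5) and a median log2 fold change of 0.23. slc43a3b, related to the human equilibrative transporter of purine bases, had 7309, 13168, 9324 and 6230 CPM in mutant libraries 1, 2, 4 and 5, against 1680, 2560, 3136 and 1836 CPM in siblings. Every mutant library was above every sibling library, and the log2 fold change was 1.97 (SE 0.279, adjusted p = 0.000872). slc29a3, whose human counterpart carries nucleosides out of the lysosome, had 149, 200, 177 and 132 CPM in mutants, against 35.6, 46.7, 59.3 and 46.5 CPM in siblings. It rose 3.50-fold (log2 fold change 1.81, SE 0.182, adjusted p = 0.000127).

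slc29a1b, related to the plasma membrane nucleoside transporter, fell by 0.96 on the log2 scale (SE 0.164), to 61.8 ± 14.2 CPM in mutants, against 120 ± 10.6 CPM in siblings (adjusted p = 0.00239). slc17a9b, of the family that loads vesicles with ATP, rose 1.74-fold (adjusted p = 0.00485). It overlaps gid8b on the same strand, so its value is uncertain. abcg2a, related to a urate exporter of human cells, rose 1.69-fold, with 1105 ± 294 CPM in mutants and 656 ± 136 CPM in siblings (adjusted p = 0.0278). Its call was lost without mutant library 2 or 4 or sibling library 1, 2 or 5 (adjusted p from 0.0605 to 0.0733). slc17a9a, named after its values were seen, was at 0.638 ± 0.257 CPM in mutants and 1.73 ± 0.744 CPM in siblings, with an adjusted p of 0.0480. It overlaps the more highly counted gid8a on the same strand over 2712 bases and missed the threshold when blocked by replicate number (adjusted p = 0.0922) and without mutant library 2, 4 or 5 or sibling library 1, 2 or 4 (0.0867 to 0.139).

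Synthesis of purines from small precursors held 5 higher and 2 lower of 14 tested genes (5 and 3 when blocked by replicate number), with a median log2 fold change of 0.34. ppat, which encodes the amidotransferase of the committed step, had 135, 119, 119 and 133 CPM in mutants, against 34.4, 28.3, 30.1 and 40.4 CPM in siblings. It rose 3.80-fold (log2 fold change 1.93, SE 0.132, adjusted p = 1.43e-05). paics, for a bifunctional enzyme of the middle steps, rose 2.65-fold (log2 fold change 1.41, SE 0.198, adjusted p = 0.000843). ppat and paics overlap on opposite strands, and with no strand setting stated for the counting, their reads from the shared stretch cannot be told apart. adssl1, related to the muscle form of adenylosuccinate synthetase on the branch to AMP, had 33.7 to 72.5 CPM in mutants and 2.77 to 7.94 CPM in siblings (log2 fold change 3.35, SE 0.363, adjusted p = 0.000195).

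Named after their values were seen, atic of the last steps to IMP rose 3.90-fold (adjusted p = 0.00174), and gart of the early steps rose 1.98-fold (adjusted p = 0.00393). On the branch to GMP, impdh2, an IMP dehydrogenase gene, had 32.9, 37.9, 34.6 and 34.1 CPM in mutants, against 76.8, 82.3, 63 and 59.4 CPM in siblings. It fell by 1.01 on the log2 scale (SE 0.129, adjusted p = 0.000492). Its paralogs impdh1b and impdh1a, named after their values were seen, did not pass (adjusted p = 0.795 and 0.169). impdh1b was at 49.3 ± 15.4 CPM in mutants and 52.5 ± 10.5 CPM in siblings, and impdh1a at 2.34 ± 1.90 and 0.853 ± 0.718 CPM. prps1b, of the enzyme that makes the ribose donor and also named after its values were seen, was at 1.22 ± 0.434 CPM in mutants and 12.4 ± 7.64 CPM in siblings (adjusted p = 0.00195). Its more abundant paralog prps1a was at 255 ± 32.8 CPM in mutants and 231 ± 27.4 CPM in siblings and did not pass. adssl, another adenylosuccinate synthetase gene, stood at 210 ± 32.2 CPM in mutants and 267 ± 21.1 CPM in siblings (adjusted p = 0.0645). adssl passed in the fit blocked by replicate number (adjusted p = 0.0352) and, without the block, when mutant library 4 was left out (0.0154). It also passed with upper-quartile scaling (0.0340), library size alone (0.0127), the stricter filter (0.0193) and limma-voom with sample weights (0.0268).

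Salvage and interconversion of nucleotides held 3 higher and 1 lower of 15 tested genes (3 and 4 when blocked by replicate number, 1 and 3 scaled by library size alone, 1 and 1 without the libraries numbered 5), while their median log2 fold change was -0.28. dck, the deoxycytidine kinase gene, whose human enzyme also takes deoxyadenosine and deoxyguanosine, rose 2.60-fold, with 64.6 ± 10.1 CPM in mutants and 24.8 ± 5.52 CPM in siblings (adjusted p = 0.000578). adka, an adenosine kinase gene, fell by 0.72 on the log2 scale (SE 0.127), with 62.5 ± 7.51 CPM in mutants and 103 ± 11.9 CPM in siblings (adjusted p = 0.00276). guk1a, a guanylate kinase gene, rose 1.34-fold (adjusted p = 0.0267), a call lost without mutant library 2 or 4 or sibling library 1 or 5 (adjusted p from 0.0611 to 0.0759).

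aprt, the adenine salvage gene, rose 1.32-fold (adjusted p = 0.0331), a call lost without mutant library 1, 2 or 4 or sibling library 1, 2 or 5 (adjusted p from 0.0565 to 0.0851). Scaled by library size alone, guk1a and aprt did not pass either (adjusted p = 0.127 and 0.149). ak1, an adenylate kinase gene, was at 53.1 ± 21.4 CPM in mutants and 86.3 ± 24.4 CPM in siblings and did not pass (adjusted p = 0.136), but it passed when blocked by replicate number (adjusted p = 0.00631). hprt1, for the enzyme that returns guanine and hypoxanthine to nucleotides, had 0 or 1 count in a library and was not tested. The related gene hprt1l, at 4.6 ± 4.99 CPM in mutants and 3.27 ± 0.989 CPM in siblings, did not pass (adjusted p = 0.69).

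Removal of phosphate from nucleotides held 2 higher and 4 lower of 20 tested genes (4 and 5 when blocked by replicate number), with a median log2 fold change of 0.07. Those that fell encode enzymes of the cell surface, of families that break down ATP and AMP outside the cell. enpp1 had 156, 269, 278 and 140 CPM in mutants, against 446, 593, 767 and 382 CPM in siblings. It fell by 1.38 on the log2 scale (SE 0.286, adjusted p = 0.00642). nt5e, the gene of CD73, which forms adenosine, was at 1.14 ± 0.362 CPM in mutants and 4.63 ± 1.13 CPM in siblings (adjusted p = 0.00187). entpd1, the gene of CD39, was at 336 ± 97.9 CPM in mutants and 532 ± 50.3 CPM in siblings (adjusted p = 0.0265).

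The call of entpd1 was lost without mutant library 1, 4 or 5 or any 1 sibling library (adjusted p from 0.0518 to 0.0866). entpd8 was at 1.60 ± 0.842 CPM in mutants and 8.48 ± 3.00 CPM in siblings (adjusted p = 0.00781), and it overlaps the more highly counted rab44 on the opposite strand. Of the cytosolic nucleotidases, nt5c2b rose 1.76-fold (adjusted p = 0.00641), and nt5c1ba, named after its values were seen, rose 2.97-fold (adjusted p = 0.0127). The more abundant nt5c2a (154 ± 22.0 and 127 ± 16.6 CPM) and nt5c3a (50.4 ± 2.79 and 42.8 ± 2.97 CPM) did not pass (adjusted p = 0.141 and 0.109). Both were also named after their values were seen, and nt5c2a passed when blocked by replicate number (adjusted p = 0.0324). acp2, a lysosomal acid phosphatase gene, was at 185 ± 14.9 CPM in mutants and 137 ± 27.8 CPM in siblings (adjusted p = 0.0505). Blocked by replicate number, it passed (adjusted p = 0.0193), as it did without mutant library 5 (0.0390) or sibling library 4 (0.00903).

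Urate breakdown and the molybdenum cofactor, which xanthine dehydrogenase needs, held 2 higher and 1 lower of 10 tested genes (2 and 0 when blocked by replicate number, 0 and 1 scaled by library size alone, 1 and 0 without the libraries numbered 5), with a median log2 fold change of -0.02. uraha, for a hydrolase that acts after urate oxidase, had 10.6, 1.54, 2.69 and 81.3 CPM in mutant libraries 1, 2, 4 and 5, against 6.23, 9.38, 7.75 and 54.0 CPM in siblings. As with xdh, the libraries numbered 5 stood out in both genotypes, and uraha did not pass. mocs2, of the cofactor's synthesis, was at 1.35 ± 0.449 CPM in mutants and 4.36 ± 3.01 CPM in siblings (adjusted p = 0.0356). That call was lost when blocked by replicate number (adjusted p = 0.0813) and without mutant library 1, 2 or 4 or sibling library 2 or 4 (0.0660 to 0.107). gphna, related to gephyrin, which completes the cofactor, was at 30.1 ± 14.1 CPM in mutants and 18.2 ± 6.59 CPM in siblings (adjusted p = 0.141), and passed when blocked by replicate number (adjusted p = 0.0159).

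The genes of that list that rose do not act on urate. nit2, for an omega-amidase, rose 1.43-fold (adjusted p = 0.0276), a call lost without mutant library 1, 2 or 4 or sibling library 2, 4 or 5 (0.0507 to 0.0723). adal, for a deaminase of methylated AMP, was at 2.18 ± 0.772 CPM in mutants and 1.03 ± 0.132 CPM in siblings (adjusted p = 0.0401). Its call was lost in the blocked fit (adjusted p = 0.0681) and without any 1 library other than mutant library 5 (0.0529 to 0.128).

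Reuse of the sugar phosphate that nucleoside phosphorylases release held 1 higher and 0 lower of 8 tested genes (2 and 0 when blocked by replicate number or with DESeq2, and 2 and 0 at an unadjusted p under 0.05 in edgeR), with a median log2 fold change of 0.17. pgm2, related to the human phosphopentomutase that readies ribose phosphate for sugar metabolism, had 61.1, 59.4, 48.2 and 64.4 CPM in mutants, against 26.1, 26.1, 21.2 and 28.7 CPM in siblings. Every mutant library was above every sibling library, with a log2 fold change of 1.19 (SE 0.136, adjusted p = 0.000262). taldo1, for transaldolase, was at 466 ± 35.8 CPM in mutants and 381 ± 37.9 CPM in siblings (adjusted p = 0.0661). It passed in the fit blocked by replicate number (adjusted p = 0.0313) and without sibling library 1 (0.0396). The transketolase gene tktb, at 930 ± 88.9 CPM in mutants and 841 ± 98.0 CPM in siblings, did not pass, nor did pgm2l1, at 14.9 ± 2.21 CPM in mutants and 18.0 ± 2.32 CPM in siblings.

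**Figure D5:**
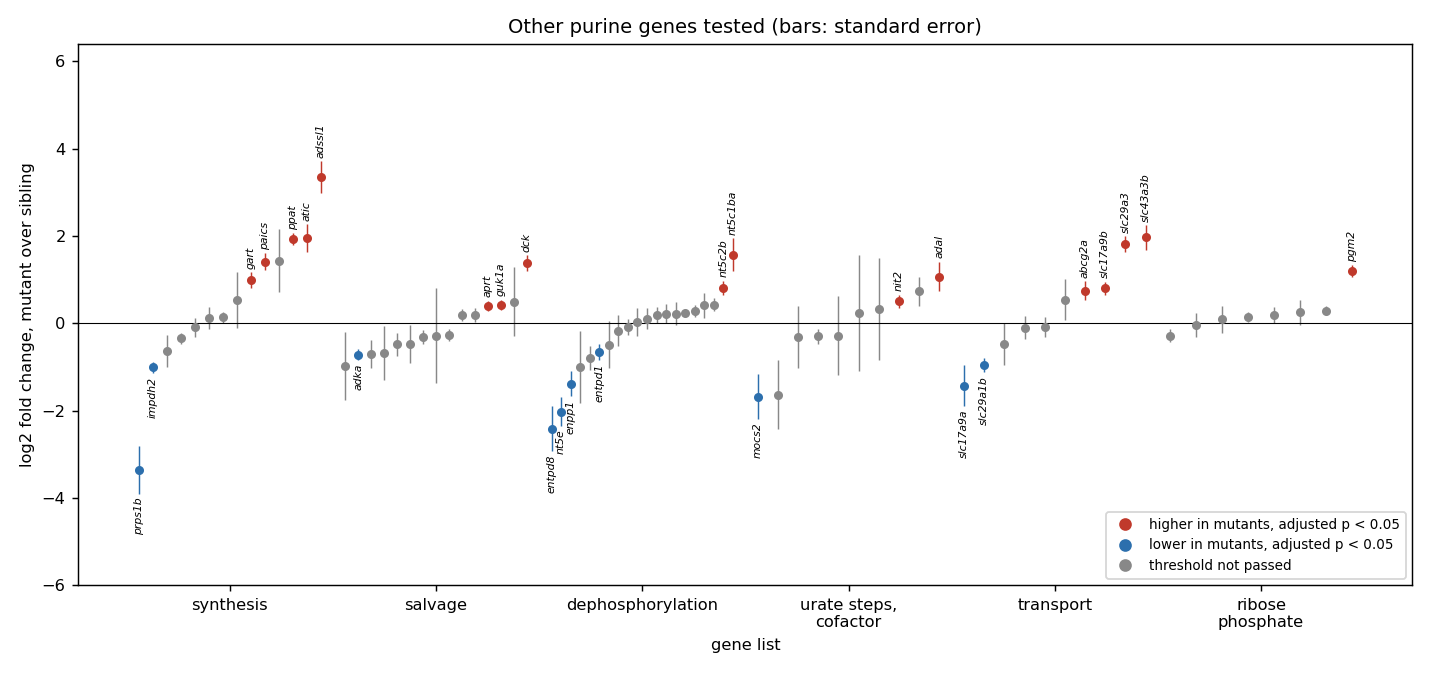
Log2 fold changes, rraga mutant over wild-type sibling (n = 4 each), with standard errors, of the 77 other purine genes tested in 6 lists, coloured where the adjusted p was under 0.05. The 17 genes higher in mutants include slc43a3b, slc29a3, ppat, adssl1, dck and pgm2, and the 10 lower include impdh2, enpp1, nt5e and slc29a1b.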

How the data were processed

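Polyadenylated RNA of 4 rraga mutant and 4 sibling libraries was measured, amplified with SMART-Seq v4 per the labels' protocols. The authors deposited raw counts of reads for each Ensembl gene. The submitters' processing notes name HISAT2 2.0.5, StringTie 1.3.3b, featureCounts 1.5.0 and GRCz11 but no roles. Whether the counting used strand is not given in the sources. Its 16 other columns of per-library values were not used. Columns were assigned to a genotype by name. Column and title numbers differ, and a column therefore stands for a genotype but no titled sample. The sample titles call the samples biological replicates. Nothing says whether libraries came from separate clutches, so p-values measure the spread between these libraries, which may be partly technical. Between libraries of 1 genotype, chi-square over its degrees of freedom was 45.8 to 94.8, so none was counted as a repeat of another.

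filterByExpr (minimum count 10) kept 16086 of the 24221 genes, and TMM factors scaled the libraries. They were tested with edgeR 4.0.16 in R 4.3.3 (quasi-likelihood test, no covariates, two-sided) with Benjamini-Hochberg adjustment and a threshold of 0.05, after a check on simulated counts. The standard error is the log2 fold change divided by the square root of F. CPM per kilobase uses the table's gene lengths, and log2 CPM for likeness has a prior count of 2. Libraries of the same number moved together around the means of their genotypes (r across genes from 0.124 to 0.288, against -0.182 to -0.00667 otherwise). Centring on those means forces the values of unlike numbers below 0 on average when those of like numbers are above it. The column number was taken to pair the libraries. The main fit leaves this pairing out, and a fit with the number as a block is given where a printed call or count of calls changed. Also tried were DESeq2's size factors, upper-quartile scaling, library size alone, no filter, at least 5 CPM in 4 libraries, DESeq2 1.42.0, limma 3.58.1 (voom with sample weights) and each library left out.

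The members and gene lists were chosen with earlier results of these data known. Named were all members, rraga, the 4 smallest p and 2 highest levels per kilobase of each purine list, the 5 genes most like gda, and the most abundant and defining markers. Not every marker so picked is printed, and 1 gene so named is not reported here. Of the named genes, ppat, paics, gart, aprt, guk1a, ak1, entpd8, uraha, slc17a9a and slc17a9b, and ada2b among the members, are uncertain, since each overlaps a gene with 10% or more of its own count.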

Additional observations from a re-analysis of the deposited data

Results flagged for a closer look

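In 12 of 123 groups of 4 libraries, 1 library lay far from the other 3. For independent groups of normally distributed values, chance gives about 1 in 20. These groups share the same libraries, and some of the genes were named after their values were seen, so the share is not comparable with that rate. In the libraries numbered 5, xdh stood at 10.8 CPM in mutants, uraha at 81.3 CPM in mutants and 54.0 CPM in siblings, slc2a15a at 78.8 CPM in mutants and 53.1 CPM in siblings, and gch2 at 1757 CPM in mutants and 1490 CPM in siblings. nit2 was low in mutant library 5 (31.2 CPM) and adka in mutant library 1 (51.3 CPM), and adal was high in mutant library 2 (3.33 CPM). In sibling library 2 entpd8 was low (4.05 CPM) and the liver gene apoa2 high (617 CPM).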

How the results depend on the processing

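The counts of other purine genes stayed within 1.5 times of the 17 higher and 10 lower under every setting tried, except 6 lower with the stricter filter. They were 12 to 18 higher and 7 to 9 lower with 1 library left out, and 20 higher and 13 lower with replicate number as a block. Scaled by library size alone they were 13 higher and 15 lower, so the larger count changed sides. Over all genes 2334 were higher and 2233 lower, with 1919 to 2203 higher and 1671 to 2093 lower with 1 library left out, and 1406 lower, past 1.5 times, without both libraries numbered 5. With replicate number as a block, 2857 were higher and 2673 lower. gda kept its direction and call in all settings. Of 153 values of the 9 tested members 143 kept direction and side of the threshold, 6 (ada2a and xdh) newly passed it and 4, all of pnp4a, turned: -0.34 with limma-voom, -0.64 with the block, -0.47 without mutant library 5 (-0.47 to 0.87 with 1 library left out) and -0.48 without both libraries numbered 5. uraha turned likewise (-0.38, -0.56, -1.94 to 1.63 and -0.63), and prps1a and tktb turned when scaled by library size alone (-0.03 each). Of 621 values of 37 of the other purine genes named, 525 kept direction and side, 69 lost the call, 21 gained it and 6 turned. Genes under the stricter filter gave no value there. The causes were not tested. Counts under about 10 per library, as for pnp6 and hprt1, were too low to show a difference.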

Other observations

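The spread of pnp4a and xdh was shared by genes outside purine metabolism, found after the values were seen with the same measure of likeness as for gda. Nearest to pnp4a were aqp1a.1, akap12a, apoda.1, si:ch211-256m1.8 and defbl1 (root mean square differences of 0.373 to 0.552). defbl1 had 137, 5.40, 2.38 and 196 CPM in mutant libraries 1, 2, 4 and 5, against 97.6, 28.1, 105 and 35.1 CPM in sibling libraries, and apoda.1 had 117, 7.76, 2.45 and 159 CPM in mutants, against 79.0, 32.0, 95.6 and 28.6 CPM in siblings. Both were highest in mutant libraries 1 and 5 and, among siblings, in libraries 1 and 4.

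Nearest to xdh were zgc:153031, slc22a7a, cax1, gpd1b and C11orf96 (0.518 to 0.746). slc22a7a, of an organic anion transporter family, had 31.0, 12.2, 6.39 and 562 CPM in mutant libraries 1, 2, 4 and 5, against 49.9, 82.1, 48.4 and 473 CPM in sibling libraries. aox5 was not among these 5 but came from the list of urate breakdown and the cofactor, and was chosen after its values were seen. This aldehyde oxidase gene, typical of xanthophores, had 16.4, 4.61, 6.58 and 300 CPM in mutants, against 13.4, 39.4, 21.6 and 202 CPM in siblings. The libraries numbered 5 were the highest of their genotype for both slc22a7a and aox5.

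Of the other marker lists, neutrophil genes summed to 1154 to 3340 CPM in mutants and 1310 to 4431 CPM in siblings. Among them mpx was at 479 ± 296 CPM in mutants and 607 ± 310 CPM in siblings and did not pass. These levels were above those of mpeg1.1 alone (65.5 ± 23.7 and 231 ± 13.2 CPM). The sum was below that of the macrophage and microglia markers, at 8478 to 9662 CPM in mutants and 10096 to 14866 CPM in siblings. The neutrophil gene with the highest level was mmp9, at 797 ± 342 CPM in mutants and 1339 ± 543 CPM in siblings. The neutrophil markers lyz (0.0584 ± 0.117 and 0.314 ± 0.308 CPM) and cxcr2 (0.0274 ± 0.0548 and 0.0244 ± 0.0489 CPM) were near 0. Of the 6 tested table entries 2 were lower, where 13.9% of all tested genes were lower. Both are entries named mmp13a, and 0 were called lower by edgeR without the libraries numbered 5 (2 at an unadjusted p under 0.05), against 2 by DESeq2 over all libraries. Erythroid genes summed to 2.14 to 63.8 CPM in mutants and 45.8 to 108 CPM in siblings, with 0 of 5 called by edgeR (1 lower at an unadjusted p under 0.05) and 1 lower by DESeq2 or when blocked by replicate number.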
